A study of Mus musculus with 3 samples.

Results

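The genes described here encode the filaments of the cell and the proteins built directly onto them: actins, alpha-actinins, actin-related proteins, subunits of the Arp2/3 complex, tropomyosins, myosins, tubulins, keratins, vimentin and desmin, cofilins, profilins, capping proteins, transgelins and calponins. They were picked by their symbols in the platform annotation. Of 130 such genes on the array design, 36 had a value on all 3 arrays and form the set tested, out of 3915 genes measured that way. A further 6 had values on 2 arrays, 5 on 1 array and 83 on none. Cflar, a regulator of apoptosis, is among the 130 by its letters only; it had no value, so the 36 are the same without it. The share with values on all 3 arrays was 27.7% here and 25.9% of the 15096 genes of the design.

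The samples were cells of HoxB7-GFP transgenic mouse kidneys at 15.5 days post coitum, normal embryonic tissue with both sexes pooled, split by flow cytometry into cells with GFP (GFP+) and cells without it (GFP-). The Hoxb7 sequences of the transgene are active in the ureteric tree, the branching epithelium that forms the collecting ducts, so the GFP- fraction is a mixture of all other kidney cells. Amplified RNA of both fractions was hybridised together on each of 3 two-colour oligonucleotide arrays. No dye swap is described in the sources used here, and having only 3 arrays sets the precision. Values are log2 ratios, likely of GFP+ over GFP-; this direction comes from how the titles are worded and from which fraction is listed as channel 1, since the dyes are not given in the sources used here, and higher and lower are stated for it. Under that direction the ureteric factor Gata3 was at 2.78, 2.00 and 2.28 on arrays 1, 2 and 3, the stromal proteoglycan Dcn at -1.90, -1.52 and -1.41, and the leukocyte antigen Cd52 at -3.07, -2.91 and -2.53.

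Actin filaments carry contraction and cell shape: actin forms the strand, tropomyosin lies along it, myosin II pulls on it, the Arp2/3 complex branches it and capping proteins stop its growth. Microtubules are built from pairs of alpha- and beta-tubulin. Intermediate filaments mark cell classes, with keratins 8 and 18 in simple epithelia such as renal ducts, vimentin in mesenchyme and desmin in muscle. Smooth muscle and its precursors are rich in alpha-smooth-muscle actin, transgelin, calponin, beta-tropomyosin and the myosin regulatory light chain Myl9.

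Among the 36 genes, Krt8 and Tubb6 were higher in GFP+ cells and Tpm2 and Myl9 lower, by limma with Benjamini-Hochberg adjustment over all 3915 genes and a threshold of adjusted p below 0.05. These 4 are 11.1% of the set, beside 2.78% of all genes called in either direction; 5.56% were called higher, beside 1.38%, and 5.56% lower, beside 1.4%. At an unadjusted p below 0.05 there were 13 of 36 (36.1%), 4 higher and 9 lower, beside 14.9% of all genes. Most of the other 32 genes leaned towards the GFP- side without passing. Of all 36, 25 means were negative and 11 positive, and the median was -0.13 (n = 36 genes), whereas over all genes 54.9% of means were positive and the median was 0.034. The sign was the same on all 3 arrays for 18 of the 36, 13 negative and 5 positive, which is 50% beside a background of 35.9%. The 13 negative ones are 36.1% of the set, beside 15.3% of all genes, and the 5 positive ones 13.9%, beside 20.7%.

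**Figure D1:**
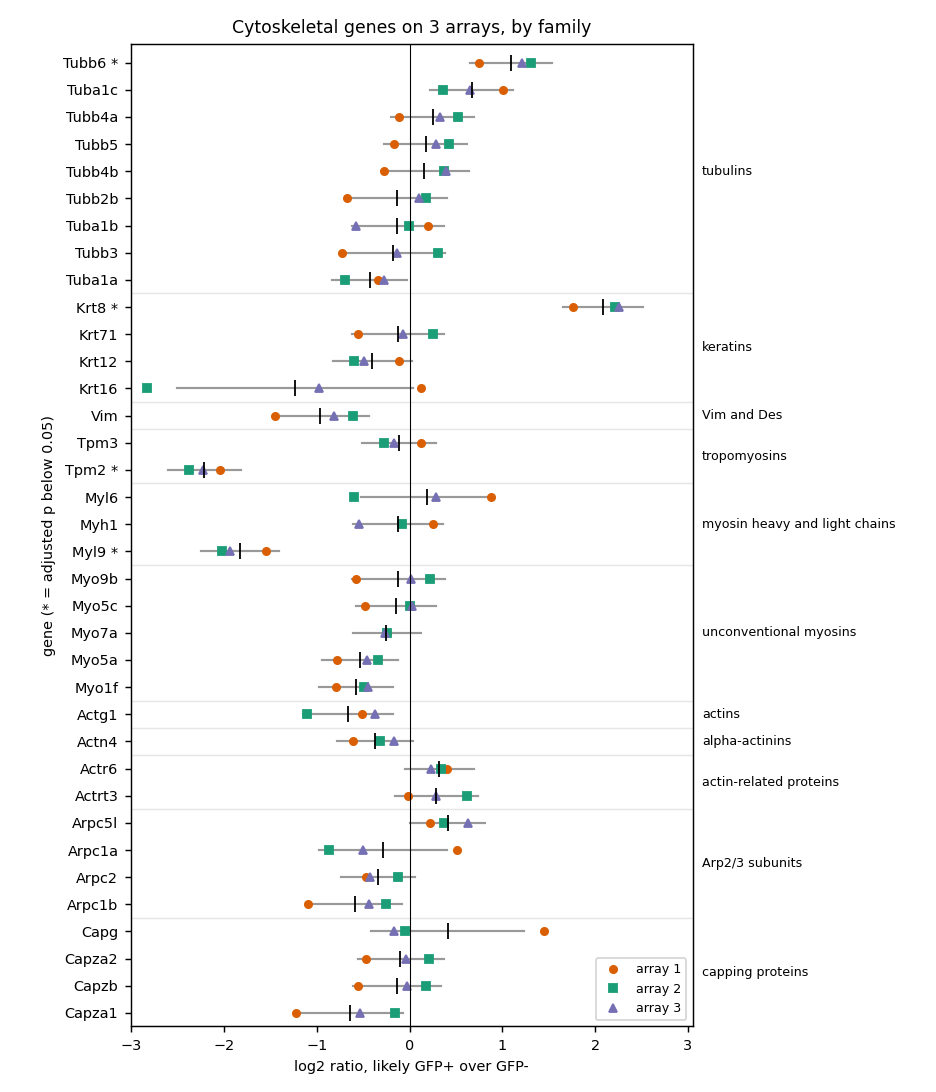
Log2 ratio, likely GFP+ over GFP-, of each of the 36 cytoskeletal genes (vertical axis, grouped by family) on array 1 (circles), array 2 (squares) and array 3 (triangles), with the mean (black tick) and limma's 95% interval (grey line). Krt8 and Tubb6 lie right of 0 and Tpm2 and Myl9 left of it on every array, while the intervals of most other genes cross or lie near 0.

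Tpm2 and Myl9, both contractile genes, had the lowest means of the 36. Tpm2, beta-tropomyosin, was at -2.04, -2.38 and -2.22 on arrays 1, 2 and 3. All 3 arrays agreed within a range far smaller than the ratio itself, and the mean of -2.21 ± 0.17 (SD, n = 3 arrays) is a 4.63-fold lower level in GFP+ cells (limma adjusted p = 0.00321), the 11th lowest mean of all genes. Myl9, the regulatory light chain of smooth-muscle and nonmuscle myosin II, was at -1.55, -2.02 and -1.93. Its mean of -1.83 ± 0.25 is a 3.56-fold lower level (limma adjusted p = 0.00632) and the 19th lowest of all genes. Ratios of sorted fractions do not tell fewer cells of a type in a fraction from less RNA per cell.

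No other tropomyosin or myosin chain passed. Tpm3, a tropomyosin of nonmuscle cells and slow muscle, had a mean of -0.11 ± 0.20 with a 95% interval from -0.51 to 0.29, so a change as large as that of Tpm2 lies outside its interval. Its 2 probes went apart on array 1, at -0.22 and 0.45, and were both negative on arrays 2 and 3. Myl6, the essential light chain of nonmuscle and smooth-muscle myosin, was at 0.88, -0.60 and 0.29, with no common sign. Myh1, a heavy chain of fast skeletal muscle, was at 0.25, -0.082 and -0.54. The genes best known from differentiated smooth muscle, Acta2, Actg2, Tagln, Cnn1 and Myh11, had no value on any array, nor did Des or Tpm1. The transgelin Tagln2 was at -1.76 and -0.89 on arrays 2 and 3, and Myh9, a heavy chain of nonmuscle myosin II, at -0.31 and 0.37 on arrays 1 and 2. Other nonmuscle heavy chains on the design, Myh10 and Myh14, had no value. With genes of at least 2 arrays included, where 3.06% of genes were called, Tagln2 had a mean of -1.33 and did not pass (limma adjusted p = 0.0985).

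Many contractile genes carry a CArG box, the binding sequence of serum response factor, which is CC and GG around 6 bases of A or T and reads alike on both strands. It was searched for in RefSeq promoter windows of GRCm38.p6, from 250 bases before to 50 after a start site. Windows were found for 32 of the 36 measured genes, and 4 of their 36 windows (11.1%) held the box, beside 1.63% of all 32851 windows. The 4 were Myl9, Actg1, Myl6 and Krt12, so the box was present both for a gene that fell and for genes that did not pass; the Krt12 match also holds TATAAA. Of all 130 genes of the design, 104 had windows, and 9 of their 117 windows (7.69%) held the box. Besides those of the 4 measured genes, these were the windows of Acta1, Arpc4, Cnn2, Myl3 and Myl7. A match is a match of letters and not a site shown to be bound. Only exact matches within these windows were searched, so a window without one does not exclude a box with a mismatch or one elsewhere in the gene. The 40 bases around each box are shown with the box in capitals, to compare the 4 measured genes, whose windows are chr2:156775288-156775327 (plus strand), chr11:120348561-120348600, chr10:128493035-128493074 and chr11:99422266-99422305 (each minus strand), 5′ to 3′:
Myl9: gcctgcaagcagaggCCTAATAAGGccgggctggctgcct
Actg1: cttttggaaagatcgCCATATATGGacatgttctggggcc
Myl6: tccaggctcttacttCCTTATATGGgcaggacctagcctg
Krt12: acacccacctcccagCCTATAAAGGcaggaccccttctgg

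The 250 bases before the start sites of the lowest and the highest gene, Tpm2 (chr4:43523555-43523804, minus strand) and Krt8 (chr15:102004343-102004592, minus strand), hold no CArG box and are shown beside the Myl9 window, also in GRCm38.p6:
Tpm2: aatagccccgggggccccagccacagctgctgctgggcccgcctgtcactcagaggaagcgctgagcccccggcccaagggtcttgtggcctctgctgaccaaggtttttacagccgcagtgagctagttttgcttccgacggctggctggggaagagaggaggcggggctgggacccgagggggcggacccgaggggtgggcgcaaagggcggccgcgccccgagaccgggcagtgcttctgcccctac
Krt8: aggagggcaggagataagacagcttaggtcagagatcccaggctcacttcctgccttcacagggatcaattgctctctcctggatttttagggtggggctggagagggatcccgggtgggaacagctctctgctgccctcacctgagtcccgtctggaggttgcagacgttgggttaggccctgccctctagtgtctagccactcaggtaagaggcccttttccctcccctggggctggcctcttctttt

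Of the 4 measured keratins 1 rose and the means of the other 3 were negative, as was that of vimentin. Krt8, which pairs with keratin 18 in simple epithelia, was at 1.76, 2.21 and 2.26, a mean of 2.08 ± 0.28 or a 4.22-fold higher level in GFP+ cells (limma adjusted p = 0.00495) and the 9th highest of all genes. Vim, the filament of mesenchyme, was at -1.45, -0.61 and -0.81. It was negative on each array, most on array 1, with a mean of -0.96 ± 0.44, and did not pass (limma adjusted p = 0.093). It passed without array 1 (-0.71, adjusted p = 0.00526), where 46.4% of all genes were called, without array 2 (-1.13, adjusted p = 0.0106), and after scaling or quantile normalization of the arrays.

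The other keratins with values on all 3 arrays are known from surface epithelia and hair. Krt16, a keratin of stressed epidermis, was at 0.12, -2.83 and -0.98. Its SD of 1.49 was the widest of the 36 genes, and its mean of -1.23 did not pass (limma adjusted p = 0.357). It passed as lower without array 1 (-1.90), where 18.9% of all genes did. It also passed without array 3 (-1.35), where 1.3% of all genes did, though its values on arrays 1 and 2 had opposite signs. Krt12, a keratin of the cornea, was at -0.11, -0.60 and -0.49, and Krt71, of the hair root sheath, at -0.56, 0.25 and -0.065. Krt7, a keratin of ducts and urothelium, had a ratio on array 3 alone, 2.64, beside 2.26 for Krt8 on that array. Krt18 and Krt19, further keratins of simple epithelia, had no value, and 27 of the 35 keratins on the design had none.

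Tubulins were measured more fully than most families, 9 of 17 genes with the gamma-tubulin complex included, and went both ways. Tubb6, a beta-tubulin of class V, was at 0.75, 1.31 and 1.21, with a mean of 1.09 ± 0.30 or a 2.13-fold higher level in GFP+ cells (limma adjusted p = 0.0396). It was 0.86, 0.80 and 0.82 above the highest of the other 5 beta-tubulins on arrays 1, 2 and 3, all on the log2 scale. Tubb6 missed the threshold without array 3 (1.03, limma adjusted p = 0.25) and with arrays 2 and 3 averaged to 1 replicate (1.01, limma adjusted p = 0.106).

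The other 5 beta-tubulins were Tubb3 and Tubb2b of neurons and neural precursors, Tubb4a of brain, and Tubb4b and the widely expressed Tubb5. They lay between -0.73 and -0.11 on array 1, between 0.18 and 0.52 on array 2 and between -0.13 and 0.39 on array 3. Array 1 was negative for all 5 and array 2 positive for all 5. For 4 beta-tubulins array 1 had the opposite sign to both other arrays, a pattern found in 50% of all genes. Means ran from -0.18 (Tubb3) to 0.25 (Tubb4a), and none of the 5 passed. Without array 1, Tubb4a (0.42), Tubb4b (0.38) and Tubb5 (0.35) passed as higher, where 27.6% of all genes did.

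Of the alpha-tubulins, Tuba1c was at 1.01, 0.36 and 0.65, positive on each array, with a mean of 0.67 ± 0.32 that did not pass (limma adjusted p = 0.176). Tuba1a, abundant in developing neurons, was at -0.34, -0.69 and -0.28 and did not pass either (limma adjusted p = 0.304). Tuba1b was at 0.20, -0.0072 and -0.58, without a common sign. Tuba1c and Tuba1a had the highest and the lowest mean of the 3 alpha-tubulins and opposite signs on every array, so their values could not overlap. The difference between them was not tested. Tubulins are close to one another in sequence, as are actins, so an oligonucleotide may read more than its own gene.

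Genes of the actin strand and its crosslinkers leaned to the GFP- side without passing. Actg1, cytoplasmic gamma-actin, was at -0.51, -1.10 and -0.37, a mean of -0.66 ± 0.39 (limma adjusted p = 0.203). Actb, Acta1 and Acta2 had no value. Actn4, a nonmuscle alpha-actinin that crosslinks actin and is abundant in podocytes, had a mean of -0.37 ± 0.22 over 2 probes, each negative on all 3 arrays. Its probes differed most on array 1, at -0.97 and -0.25. The actin-related protein Actr6, a nuclear protein of chromatin remodelling, was at 0.40, 0.34 and 0.23, and Actrt3, known from testis, at -0.017, 0.62 and 0.28.

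The Arp2/3 subunits did not move as a block. Arpc1b was at -1.09, -0.25 and -0.44 and Arpc1a, the alternative form of the same subunit, at 0.51, -0.87 and -0.50. Array 1 thus placed the 2 forms on opposite sides and arrays 2 and 3 on the same side. Arpc2, a core subunit, was at -0.47, -0.12 and -0.43, and Arpc5l at 0.22, 0.37 and 0.63, the only one of the 4 positive on all 3 arrays. None passed (limma adjusted p from 0.27 to 0.69), and the median of the 4 means was -0.31.

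Capping protein, a dimer of an alpha and a beta subunit, had means of -0.64 ± 0.54 for Capza1, -0.098 ± 0.35 for Capza2 and -0.13 ± 0.37 for Capzb. Each of these was lowest on array 1, at -1.22, -0.47 and -0.55. Capg, a capping protein of the gelsolin family that is abundant in macrophages, went the other way on array 1, at 1.45, and was at -0.054 and -0.17 on arrays 2 and 3. Its mean of 0.41 therefore rests on array 1, and without that array it was -0.11. None of the 4 passed.

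All 5 unconventional myosins had negative means and none passed. Myo1f, a myosin of leukocytes, was at -0.79, -0.49 and -0.45, a mean of -0.58 ± 0.19 (limma adjusted p = 0.184). Myo5a, a carrier of vesicles and pigment granules, was at -0.78, -0.34 and -0.46. Myo7a, known from hair cells of the ear, hardly varied, at -0.24, -0.24 and -0.26. Myo5c, a myosin V of glandular epithelia, and Myo9b were negative on array 1 alone, with means of -0.15 and -0.12. The interval of each of the 5 lay within a 2-fold change in either direction, as it did for 25 of the 36 genes (69.4%) and 84.2% of all genes.

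**Figure D2:**
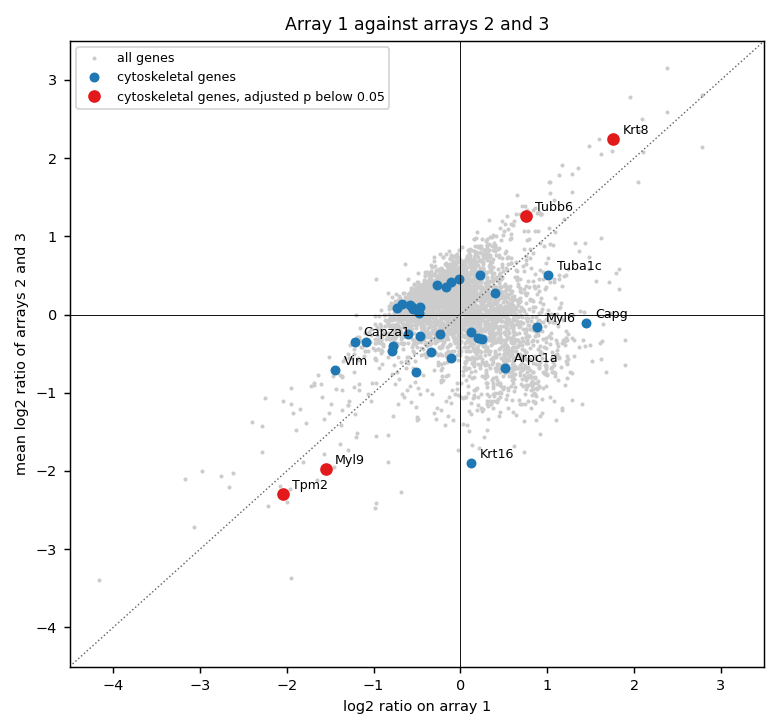
Log2 ratio on array 1 (horizontal axis) against the mean log2 ratio of arrays 2 and 3 (vertical axis) for all 3915 genes (grey) and the 36 cytoskeletal genes (blue; red where adjusted p was below 0.05), with the line of equal values dotted. The 4 called genes lie near that line, whereas Krt16, Capg, Arpc1a and Myl6 lie far to its lower right.

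Array 1 stood apart from the other arrays. Across all genes, which are not independent replicates, Pearson's r was 0.0799 between arrays 1 and 2, 0.277 between arrays 1 and 3 and 0.883 between arrays 2 and 3. Across the 36 cytoskeletal genes the values were 0.498, 0.71 and 0.878. These values include the 4 called genes, whose large ratios had 1 sign on every array, and r without them was not computed. Among the other 32 genes, array 1 had the opposite sign to both other arrays in 13 (40.6%), beside 50% of all genes. Without array 1, 8 of the 36 were higher and 11 lower, but 46.4% of all genes were called under that setting. Tpm2 (-2.30), Myl9 (-1.98), Krt8 (2.24) and Tubb6 (1.26) passed there too. With array weights, which gave array 1 the least weight, 9 were higher and 16 lower, where 55.4% of all genes were called.

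**Figure D3:**
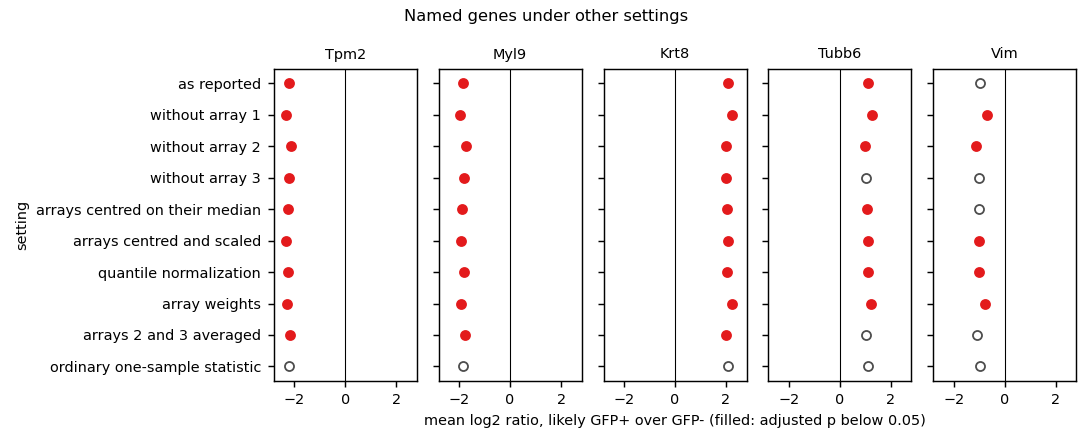
Mean log2 ratio (horizontal axis) of Tpm2, Myl9, Krt8, Tubb6 and Vim under the reported test and 9 other settings (vertical axis), filled where adjusted p was below 0.05 and open otherwise. Tpm2, Myl9 and Krt8 are filled in every setting but the ordinary one-sample statistic, Tubb6 is open in 3 settings, and Vim changes between filled and open.

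Partners and regulators of the filaments that the symbols do not pick were read from 5 lists of 158 genes, 57 of them measured on all 3 arrays. By limma 0 rose and 1 fell, 1.75% beside 2.78% of all genes; at an unadjusted p below 0.05, 6 were higher and 4 lower, 17.5% of the 57 beside 14.9% of all genes. The gene that fell was Tln1, talin, which ties integrins to actin, at -1.29, -1.86 and -1.61 (mean -1.59 ± 0.28, limma adjusted p = 0.0105). Rac2, a small GTPase of blood cells, was next lowest in its list of linkers at -1.01 ± 0.43 and did not pass (limma adjusted p = 0.0751), while Afdn, an adaptor of cell junctions, had 0.65 and the membrane linker Msn 0.40. Of the 57 means 27 were positive and 30 negative, and their median was -0.0069.

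In the list of actin turnover and bundling (14 of 41 measured), Dstn, which severs actin filaments, had the highest mean, 0.77 ± 0.19, and missed the threshold (limma adjusted p = 0.0831). Gsn, gelsolin, which severs and caps filaments, had -0.72 ± 0.40, the filament-end protein Tmod3 -0.35 with a wide SD of 1.18, and the monomer-binding Twf2 -0.22. Among contractile regulators (6 of 24 measured), Csrp2, a LIM protein of smooth muscle, was at 0.54, 0.66 and 0.78 and the adhesion protein Tes at 0.20, 1.00 and 0.74. Both were positive on all 3 arrays, on the side opposite to Tpm2 and Myl9, and neither passed. Cald1, caldesmon, which binds actin and tropomyosin in smooth muscle, was at 0.04, 0.11 and 0.15, with an interval from -0.27 to 0.47. Srf, serum response factor itself, had -0.13 ± 0.52 and the phosphatase inhibitor Ppp1r14b -0.23.

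Among microtubule partners (21 of 48 measured), Map1a, which binds microtubules in neurons, had the lowest mean, -0.79 ± 0.62, and the dynactin subunits Dctn1 and Dctn3 had -0.37 and 0.36. Tbcb, which helps fold alpha-tubulin, had 0.37. The nuclear lamin Lmna (0.54 ± 0.40), the desmosomal Pkp3 (0.52 ± 0.29) and the lamin Lmnb2 (0.019) were the 3 of 20 other intermediate filament and linker genes measured. None of these passed.

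**Figure D4:**
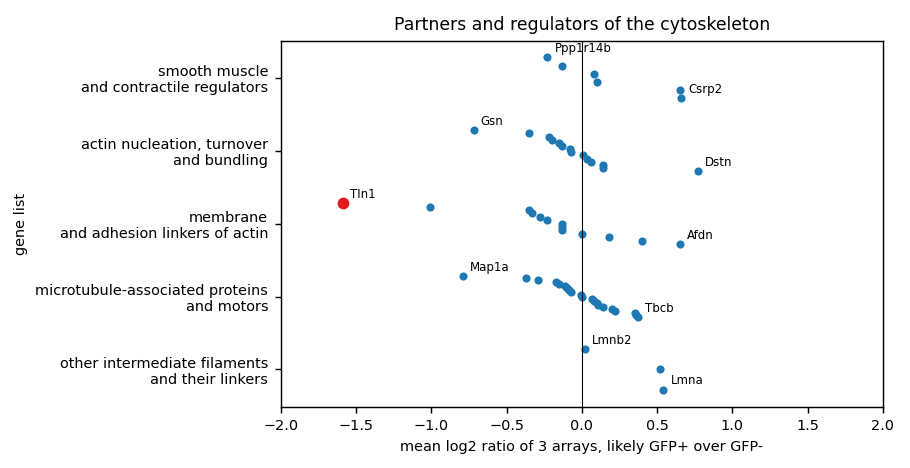
Mean log2 ratio of 3 arrays, likely GFP+ over GFP- (horizontal axis), of 57 partners and regulators of the cytoskeleton in 5 lists (vertical axis, genes spread within a list for legibility); the lowest and highest gene of each list are named. Tln1 at -1.59 (red) is the only gene with adjusted p below 0.05.

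Some marker genes of other kidney cells fell, as Tpm2 and Myl9 did. Of all genes, 1.4% were called lower. Of 4 measured stromal markers of 13, 3 fell, and the means of all 4 ran from -2.46 to -0.21. Of 6 measured macrophage markers of 11, 5 fell, and the means of all 6 ran from -2.84 to -1.28. Of 6 measured nephron progenitor and early nephron markers of 9, 3 fell (means of all 6 from -1.72 to 0.17). Of 2 measured podocyte markers of 6, Tcf21 fell (mean -1.94) and Podxl did not (0.017). The 6 measured endothelial markers of 9 had means from -0.96 to -0.17 and none passed. Smooth muscle markers outside the set were represented by Cald1 alone of 7, and 0 of 8 skeletal muscle markers were measured. All 4 measured ureteric markers of 16 rose with Krt8 and Tubb6, with means from 1.97 to 2.36, beside 1.38% of all genes called higher. The part of these cell types in the values of the cytoskeletal genes was not tested.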

How the data were processed

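Log2 ratios of 3 two-colour arrays of the Mouse Compugen design were used as deposited. Per the labels, the authors read images with Imagene 5.5, adjusted the control channel by a Lowess curve with 20% of the data in each local fit, and raised control values below 10 to 10. The deposited values are log2 ratios: 2 raised to the value was a whole number of thousandths, within 0.01 of a thousandth, for 99.97% of values, against 2.37% for base e. The titles call the values filtered, by a rule not given in the sources used here. Raw intensities were not analysed here.

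Probes of 1 gene symbol with values on all 3 arrays were averaged by gene, which gave 3915 genes. Means were compared with 0 by limma 3.58.1, run in R 4.3.3 (intercept only, two-sided, Benjamini-Hochberg over all genes). Symbols came from the platform annotation, and the RefSeq table changed 0 of the cytoskeletal symbols. Genes were named if they passed, if they were highest or lowest of their family, or if their family had at most 4 measured genes; further tubulins and myosins are named after their values were seen, as are genes without values on all arrays. From each list of partners the 4 of largest absolute mean are named, and Cald1 after its value was seen. The cytoskeletal genes and all lists were chosen with earlier results of these data known. Nothing in the labels says that the arrays stem from separate litters or sorts. The p-values therefore reflect the variation among 3 hybridisations and no more, and this may be technical. On simulated data of 3915 genes limma recovered 50% of genes shifted by 1 log2 unit and 85.6% of those shifted by 2, with 3.51% of calls false. The simulated arrays were independent and of equal spread within a gene. The real ones were not alike, with r of 0.883 between arrays 2 and 3 and 0.0799 between arrays 1 and 2. These rates therefore do not carry over to the real arrays. Alternatives left out each array, changed the scaling between arrays, the weights, the test, the unit and the filter.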

Additional observations from a re-analysis of the deposited data

How the results depend on the processing

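Tpm2, Myl9 and Krt8 kept their direction under every alternative run and passed in all but the ordinary one-sample statistic, which shares no variance between genes; under it 0 of the 36 cytoskeletal genes passed (adjusted p = 0.183 for Tpm2 and 0.245 for Myl9 and Krt8), with 3 higher and 4 lower at an unadjusted p below 0.05, and 1 of all genes was higher and 0 lower (284 and 187 unadjusted), with 0 partner genes lower (4 higher and 2 lower unadjusted). Tubb6 was lost without array 3, with arrays 2 and 3 averaged and by that statistic. Leaving out 1 array gave 1 to 8 of the 36 higher and 3 to 11 lower, beside 23 to 1080 and 51 to 738 of all genes and 0 to 14 and 1 to 10 of the partner genes; the extremes of the higher counts came without array 3 and without array 1. Leaving out array 1, 2 or 3 gave a median of the 36 between -0.27 and -0.18. Array weights, estimated gene by gene because the default estimate did not converge, gave 9 higher and 16 lower, beside 1309 and 861 of all genes (55.4%) and 15 and 14 partner genes. Averaging arrays 2 and 3 gave 1 of the 36 and 29 of all genes higher, and 2 partner genes lower. Quantile normalization gave 84 of all genes lower, and 1 partner gene higher and 2 lower; scaling gave 2 partner genes lower. Signs turned for 12 genes, none of which passed in the reported test or with the sign turned. Leaving out 1 array gave ranges of -0.11 to 0.70 for Capg, -0.25 to 0.09 for Capza2, -0.29 to 0.075 for Capzb, -0.31 to 0.093 for Krt71, -0.16 to 0.58 for Myl6, -0.24 to 0.014 for Myo5c, -0.28 to 0.12 for Myo9b, -0.28 to 0.14 for Tubb2b and -0.43 to 0.089 for Tubb3, turned without array 1; -0.68 to 0.0039 for Arpc1a, turned without array 2; and -0.31 to 0.082 for Myh1 and -0.30 to 0.097 for Tuba1b, turned without array 3. With array weights the turned values were Capg (-0.10), Capza2 (0.019), Capzb (0.012), Krt71 (0.0044), Myo5c (0.0073), Myo9b (0.052) and Tubb2b (0.10). The cause was not tested. Centring, updated symbols, testing by probe and genes of at least 2 arrays changed no call among the 36. No paired analysis was possible because the arrays form 1 group and each already compares both fractions. Signal over background could not be examined, since only ratios were used. The dyes are not given and no dye swap is described, so a dye effect and a difference between the cells cannot be told apart.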

Other observations

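The cytoskeletal genes with values on only some arrays that are not described above had ratios between -0.62 and 0.54. Arpc4, a core subunit of the Arp2/3 complex, was at 0.024 and 0.10 on arrays 2 and 3, and Cfl1, the actin-severing cofilin of nonmuscle cells, at -0.06 and 0.13 on the same arrays. Krt27 was at -0.11 and -0.031 on arrays 1 and 3. Myo7b, a myosin of brush borders, was at 0.54 and 0.29 on arrays 2 and 3. On array 3 alone, Actr3 of the Arp2/3 complex was at 0.073, the keratins Krt78 and Krt84 at 0.21 and 0.17, and Myo10, a myosin of filopodia, at -0.62. No profilin or calponin had a value on any array.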
